A study of Rattus norvegicus with 10 samples.

Results

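The 10 genes Sgk1, Mt2A, Mt1a, Fkbp5, Tsc22d3, Per1, Ddit4, Klf9, Nfkbia and Pdk4 are known to be induced by glucocorticoids, the steroid hormones of the adrenal cortex. They were read in the hypothalamus through every probe set that the array annotation assigns to one of them alone. This gave 14 probe sets among the 31042 analysed, and 10 genes among the 14217 that have a probe set of their own. Klf9 had 3 probe sets, Fkbp5 and Pdk4 had 2 each, and the other 7 genes had 1 each. Mt1a is named Mt1 on the array and was matched by its gene identifier. Left out was 1 probe set that names one of the 10 genes together with other genes.

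The rats were male Wistar rats, labelled 4 weeks old, and whole hypothalamic RNA of each rat was hybridised to 1 Affymetrix rat genome array. The 5 rats of the C group (Chow 1 to Chow 5) ate solid chow for 8 days, and the 5 rats of the P group (Powder 1 to Powder 5) ate powdered feed for the same time. All 10 rats had first been accustomed to powdered feed, so the C group had changed to a feed that needs chewing and the P group had stayed on the soft one. The comparison asks what this change of food texture does to the hypothalamic transcriptome.

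Glucocorticoids enter the cell and bind the glucocorticoid receptor (Nr3c1), which then moves to the nucleus and acts at its response elements in DNA. In the hypothalamus the hormone closes a feedback loop, because corticotropin-releasing hormone (Crh) and vasopressin (Avp) made there drive its release and are in turn held down by it. The genes described here are widely used as readouts of receptor activity, but each also answers to other inputs. Metallothioneins answer to zinc and cadmium, Nfkbia to NF-κB, Ddit4 to hypoxia and energy shortage, and Per1 to the circadian clock. Blood hormone was not part of these arrays.

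The promoters of the metallothionein genes are shown because Mt2A had the largest standard deviation of all members while its neighbour Mt1a was flat. Both lie on the minus strand of rat chromosome 19 with 4958 bases between them (Mt1a at chr19:10831959-10832975, Mt2A at chr19:10837934-10838708, RefSeq, build GRCr8). The 250 bases before each start site follow, 5′ to 3′, with matches to the core of the metal response element in capitals. They cover chr19:10838709-10838958 for Mt2A and chr19:10832976-10833225 for Mt1a.
Mt2A: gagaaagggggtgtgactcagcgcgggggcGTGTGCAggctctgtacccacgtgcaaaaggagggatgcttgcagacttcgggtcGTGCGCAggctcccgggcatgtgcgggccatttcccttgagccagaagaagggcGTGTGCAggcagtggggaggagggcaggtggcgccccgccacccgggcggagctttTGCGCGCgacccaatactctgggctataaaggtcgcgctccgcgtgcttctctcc
Mt1a: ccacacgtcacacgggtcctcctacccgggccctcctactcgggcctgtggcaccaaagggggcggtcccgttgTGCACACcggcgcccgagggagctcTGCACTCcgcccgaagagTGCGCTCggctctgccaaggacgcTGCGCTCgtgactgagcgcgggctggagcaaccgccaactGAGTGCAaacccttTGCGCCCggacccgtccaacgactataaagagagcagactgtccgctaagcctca
The core was searched as TGCGCNC and TGCACNC on both strands. Mt2A held 4 matches and Mt1a held 6, counted over the RefSeq window of 300 bases that also takes in the 50 bases after the start site. Of 33469 rat promoters of this length, 24.2% held 1 match or more, 147 (0.439%) held at least 4, and 13 (0.0388%) held at least 6. Among the 14 windows listed for the 10 genes, 5 windows of 5 genes held a match, with 1 match each in Tsc22d3, Ddit4 and Nfkbia. The glucocorticoid response element, searched as GNACA, any 3 bases and TGTNC on both strands, was in 0 of the 14 windows and in 0.439% of all promoters. Its half-site AGAACA was in 0 of the 14 windows and in 20.7% of all promoters. These counts describe letters in a short window, and the array data do not bear on binding there.

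The deposited values are log2 signals, and the summarization used by the authors leaves a probe set almost flat where its probes share no signal. Over the 10 rats 92.6% of probe sets had a standard deviation (SD) below 0.001, and here these are called flat. A probe set with an SD above 0.1 is called varying, which holds for 1391 of 31042 probe sets (4.48%) and for 901 of 14217 genes (6.34%). The array has no read depth, so precision rests on the number of rats. Levels are not compared between probe sets. Of 11 matched genes of hypothalamic neurons 9 varied between rats, among them Avp, Hcrt, Oxt and Pmch, 1 (Cartpt) lay just under the limit and 1 (Pomc) was flat. The leptomeningeal marker list stood highest in Chow 1 and Chow 4, at 0.81 and 0.65 above its own average, against -0.70 to 0.40 in the other 8 rats. The differences and calls of the members that were not flat are therefore also given without these 2 rats. So are the correlations of named member pairs and those with gene lists. For genes of the other lists at most the calls are repeated, and their differences rest on all 10 rats. The genes most like each varying member were read with all 10 rats only. In such whole-tissue RNA, fewer cells of a type and less RNA per cell cannot be told apart.

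Of the 10 genes, 3 varied, 2 lay between the limits and 5 were flat. The varying genes were Mt2A (SD 0.231), Sgk1 (SD 0.202) and Ddit4 (SD 0.115). Tsc22d3 (SD 0.0985) and 1 probe set of Klf9 (SD 0.0678) came next. The member just inside the threshold was thus Ddit4 and the member just outside was Tsc22d3. Mt1a, Fkbp5, Per1, Nfkbia and Pdk4 were flat in every probe set, as were the other 2 probe sets of Klf9.

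**Figure D1:**
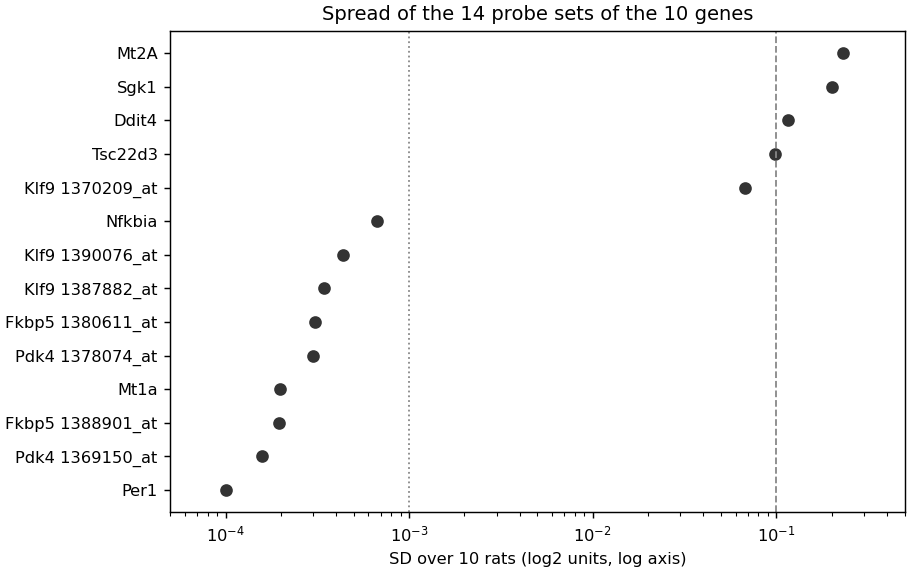
Standard deviation over the 10 rats of each of the 14 probe sets, in log2 units on a log axis. The dashed line marks 0.1 and the dotted line 0.001, and no probe set lies between 0.000665 (Nfkbia) and 0.0678 (Klf9).

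Mt2A, which encodes a small cysteine-rich protein that binds zinc and copper, read 8.72, 8.36, 8.40, 8.77 and 9.07 in Chow 1 to Chow 5, against 8.37, 8.48, 8.44, 8.40 and 8.51 in Powder 1 to Powder 5 (log2 signal, probe set 1388271_at). Chow 1, Chow 4 and Chow 5 stood above every P rat, whereas Chow 2 lay just below every P rat and Chow 3 near the low end of the P group. The C group averaged 8.66 ± 0.29 and the P group 8.44 ± 0.06 (SD, n = 5 each). The spread thus lay almost wholly among the chow-fed rats.

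Sgk1, a kinase first found as serum- and glucocorticoid-induced, which acts on ion channels and transporters, read 9.17, 9.78, 9.22, 9.34 and 9.34 in Chow 1 to Chow 5, against 9.12, 9.22, 9.28, 9.03 and 9.36 in Powder 1 to Powder 5 (probe set 1367802_at). Only Chow 2 stood above every P rat. The C rats averaged 9.37 ± 0.24 and the P rats 9.20 ± 0.13 (SD, n = 5 each). Chow 2, the highest rat for Sgk1, was the lowest of all 10 for Mt2A.

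Ddit4, also known as REDD1, restrains the growth kinase complex mTORC1. It read 9.46, 9.86, 9.71, 9.62 and 9.82 in Chow 1 to Chow 5, against 9.64, 9.69, 9.60, 9.61 and 9.74 in Powder 1 to Powder 5 (probe set 1368025_at). The highest and the lowest rat were both chow-fed, Chow 2 and Chow 1, and the P rats lay between them.

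Tsc22d3 encodes GILZ, a leucine zipper protein that mediates part of the anti-inflammatory action of glucocorticoids. It read 10.44, 10.59, 10.66, 10.62 and 10.76 in Chow 1 to Chow 5, against 10.53, 10.57, 10.61, 10.57 and 10.76 in Powder 1 to Powder 5 (probe set 1367771_at). Chow 5 and Powder 5 were the highest and Chow 1 the lowest. Klf9, a zinc finger transcription factor, read 10.10, 10.22, 10.16, 10.21 and 10.28 in the C rats, against 10.09, 10.19, 10.22, 10.11 and 10.26 in the P rats (probe set 1370209_at). Again Chow 5 and Powder 5 were highest, and the groups overlapped over nearly their whole range.

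**Figure D2:**
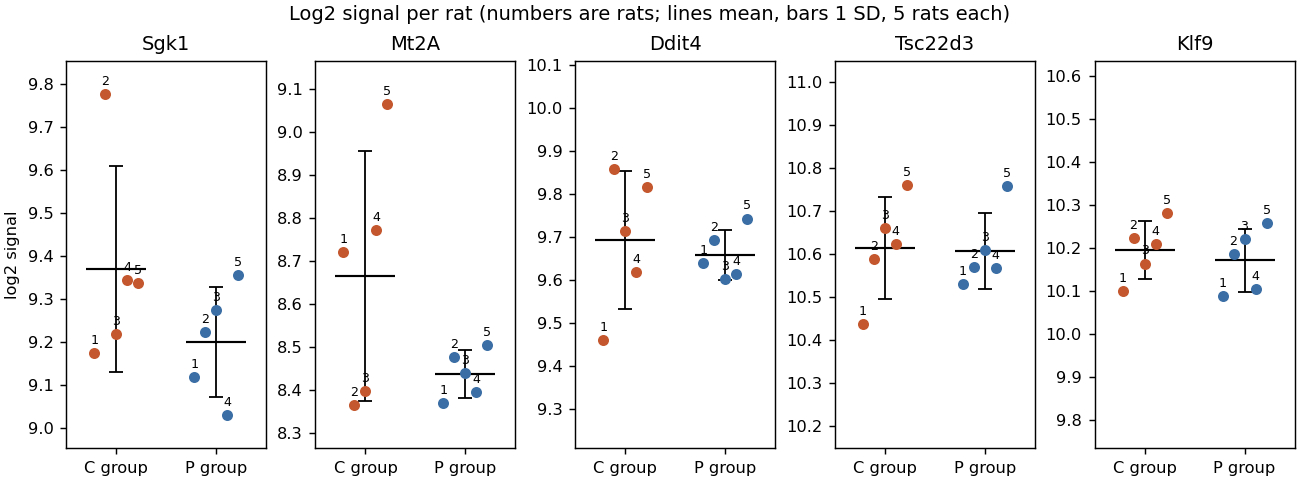
Log2 signal of the 5 probe sets with an SD above 0.05 in each rat, with the C group left of the P group in each panel. Numbers are rats, horizontal lines are group means and bars are 1 SD (5 rats per group). For Mt2A the P rats lie between 8.37 and 8.51 while the C rats reach 9.07.

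The flat members barely moved on the scale used by the others. Fkbp5, a co-chaperone that lowers the affinity of the receptor for its hormone and is among the most used markers of glucocorticoid exposure, averaged 6.89 in both groups in one probe set and 7.77 in both groups in the other. Their SDs over the 10 rats were 0.000309 and 0.000195. Per1, a repressor in the core clock loop, averaged 8.17 in both groups with an SD of 0.000101. Nfkbia, the inhibitor that keeps NF-κB in the cytoplasm, spanned 0.00197 in all, from 8.2197 in Chow 1 to 8.2216 in Chow 2. The probe sets of Pdk4, which shuts down pyruvate oxidation, averaged 6.74 and 7.18 in both groups. Mt1a averaged 6.21 in both groups and spanned 0.000604, against 0.702 for Mt2A. A flat value after this summarization is no evidence that the transcript was constant, since the method returns it whenever probes do not vary together.

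Rank products, the method of the study, pair each C rat with each P rat, 25 pairs in all, and rank the fold changes of all probe sets within each pair. At a false discovery rate (FDR) below 0.05 they called 2 of the 10 genes higher in the C group, Mt2A and Sgk1, and 0 lower. Over all 31042 probe sets 0.941% were called higher and 0.818% lower. Of the 292 calls as higher 283 fell on varying probe sets, and of the 254 calls as lower 207 did. Among all varying probe sets 20.3% were called higher and 14.9% lower. Of the 3 varying members 2 were called, and with so few members this share is not read against that background.

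Mt2A was higher in the C group by 0.23 (SE 0.13, log2 scale, a ratio of 1.17), with a rank product FDR of 0.0181. Sgk1 was higher by 0.17 (SE 0.12, a ratio of 1.13), with an FDR of 0.0202. Neither difference passed a test that weighs it against the spread between rats. Limma gave adjusted p = 0.9995 for both, and the exact two-sided permutation test over the 252 assignments of 5 against 5 rats gave p = 0.151 for Mt2A and p = 0.198 for Sgk1, where the smallest possible value is 0.00794. By limma 0 of the 31042 probe sets passed (0.0%, lowest adjusted p = 0.986). Without adjustment 1100 of them (3.54%) had p below 0.05, and 0 of the 14 member probe sets were among these. Differences of this size were not rare, since 8.84% of varying probe sets differed by at least as much as Mt2A and 16.1% by at least as much as Sgk1. The median difference was 0.03 over all varying probe sets.

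The other members showed smaller differences. The difference was 0.04 for Ddit4 (SE 0.07, FDR 0.0957, exact permutation p = 0.683), 0.02 for Klf9 (SE 0.04, FDR 0.268, exact permutation p = 0.611) and 0.01 for Tsc22d3 (SE 0.06, FDR 0.163, exact permutation p = 0.905). None was called. Without Chow 1 and Chow 4 the Ddit4 difference rose to 0.14 (SE 0.045, exact permutation p = 0.0714). Those of Klf9 and Tsc22d3 were then 0.05 and 0.06, and again none was called. With all rats, the largest difference among the flat probe sets was 0.00023, for Mt1a (limma p = 0.0504, exact permutation p = 0.0714). In 11 of the 14 member probe sets the C mean was above the P mean, compared with 48.9% of all probe sets, with a median difference of 0.00021 over the 14 and -2.72e-06 over all. Flat probe sets are among these 11, and Klf9, Fkbp5 and Pdk4 entered with more than 1 probe set each. The count is therefore not read as a shared direction of the members. None of the 14 had groups that did not overlap, which 0.432% of all probe sets had.

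Both calls depended on which rats were entered. Each was made in 7 of the 10 fits that leave out 1 rat. The Mt2A call was lost without Chow 1 (difference 0.21), Chow 4 (0.20) or Chow 5 (0.13), the 3 rats above the P group. The Sgk1 call was lost without Chow 2 (0.07), Powder 1 (0.15) or Powder 4 (0.13), the highest C rat and the 2 lowest P rats. Without Chow 1 and Chow 4 the differences were 0.17 for Mt2A and 0.24 for Sgk1, and neither was called. In that fit 49 of all 31042 probe sets were called higher and 251 lower, against 292 and 254 with all rats.

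**Figure D3:**
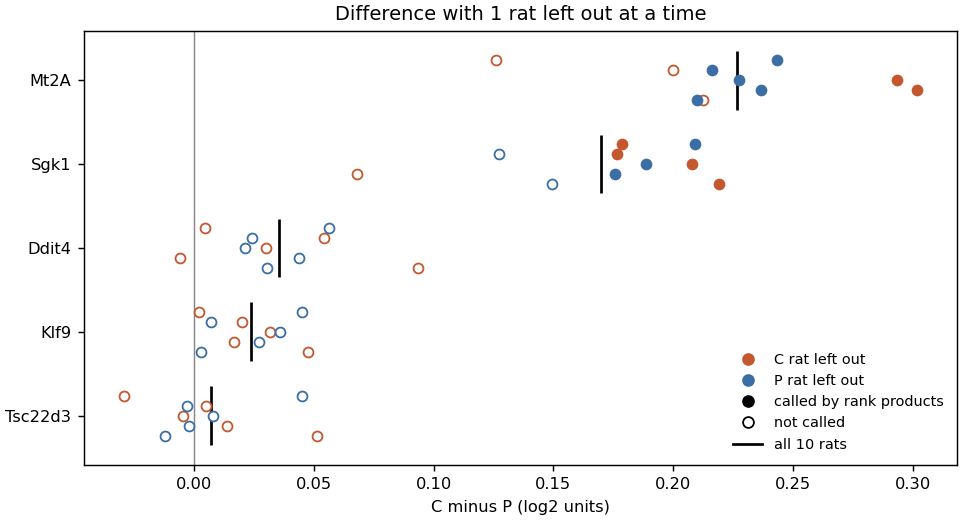
Difference between the C and P group means (log2 units) of the 5 probe sets with an SD above 0.05, with 1 rat left out at a time. Filled points were called by rank products at an FDR below 0.05 and open points were not, and vertical bars mark the value with all 10 rats. The Mt2A points run between 0.13 and 0.30 and the Sgk1 points between 0.07 and 0.22.

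Over all 10 rats the varying genes did not move together as 1 set. Mt2A and Sgk1, the 2 called genes, showed no relation over the 10 rats that passed a test (Pearson r = 0.03, permutation p = 0.933, Spearman rho = 0.24, permutation p = 0.512). Adjusted over the 91 pairs of member probe sets these p-values were 0.996 and 0.753. Without Chow 4 and Chow 5, the rats farthest from the Mt2A median, r was -0.21, with each diet's mean removed it was -0.27, and without Chow 1 and Chow 4 it was 0.05. Nor did Mt2A and Ddit4 (r = 0.01, permutation p = 0.970, adjusted p = 0.996, rho = -0.12, permutation p = 0.759), whose r was -0.67 without Chow 4 and Chow 5 and 0.43 without Chow 1 and Chow 4. Its sign thus depended on which 2 rats were left out.

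Sgk1 and Ddit4 leaned the same way (r = 0.67, permutation p = 0.0359, adjusted p = 0.175, rho = 0.61, permutation p = 0.0664). Chow 2 was the highest rat for both. Without Chow 2 and Powder 4 r was 0.50, and without Chow 1 and Chow 4 it was 0.82. The median r over the 3 pairs of varying genes was 0.03 with all rats, 0.46 without Chow 2 and 0.43 without Chow 1 and Chow 4, so the low value rested on these rats.

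**Figure D4:**
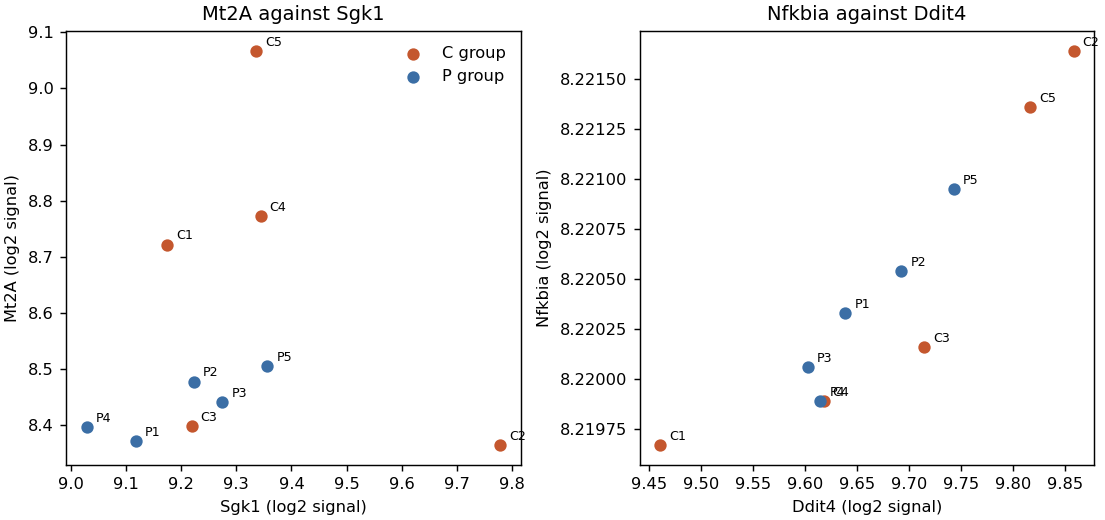
Log2 signal of Mt2A against Sgk1 (left) and of Nfkbia against Ddit4 (right), with 1 point per rat labelled by group and number. In the left panel Chow 2 is far right and lowest and Chow 5 is at the top, and in the right panel the rats lie near a line although Nfkbia spans only 0.00197.

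Apart from Mt2A, the members above the flat range were positively related. Among Sgk1, Ddit4, Tsc22d3 and Klf9 the 6 values of r ran between 0.28 and 0.82 with a median of 0.68. Those of Mt2A with these 4 genes ran between 0.01 and 0.42. For scale, the 36 pairs of flat member probe sets had r between -0.40 and 0.84, with a median of 0.26. Without Chow 1 and Chow 4, Mt2A had r = 0.69 with Tsc22d3, 0.62 with Klf9, 0.43 with Ddit4 and 0.05 with Sgk1. Sgk1 and Tsc22d3 then had r = 0.22, Ddit4 and Tsc22d3 0.495, and Ddit4 and Klf9 0.645. How far Mt2A stood apart thus depended on these 2 rats. The pair of highest r among these 5 genes with all rats was Tsc22d3 and Klf9 (r = 0.82, permutation p = 0.00338, adjusted p = 0.0715, rho = 0.82, permutation p = 0.00560, adjusted p = 0.0849). It had r = 0.69 without Chow 1 and Chow 5 and 0.79 without Chow 1 and Chow 4. Sgk1 and Klf9 had r = 0.63 (permutation p = 0.0365, adjusted p = 0.175) and rho = 0.86 (permutation p = 0.00320, adjusted p = 0.0670), and r was 0.93 without Chow 2 and Powder 4 and 0.61 without Chow 1 and Chow 4. None of these passed 0.05 after adjustment over the 91 pairs.

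The 1 pair that passed joined a varying and a flat probe set. Ddit4 and Nfkbia had r = 0.92 (permutation p = 2e-05, adjusted p = 0.00182) and rho = 0.93 (permutation p = 0.00033, adjusted p = 0.0300). The value was 0.91 without Chow 1 and Chow 2, 0.94 without Chow 1 and Chow 4, and 0.92 with the diet means removed. Only 0.00322% of all probe sets had a higher r with Ddit4 than Nfkbia. Rats were thus ordered almost alike by the 2 genes, although the whole span of Nfkbia was 0.00197 and that of Ddit4 was 0.398 on the log2 scale.

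Other pairs that held a flat probe set did not pass after adjustment. Per1 had r = 0.84 with Nfkbia, itself flat (permutation p = 0.00393, adjusted p = 0.0715, rho = 0.84, permutation p = 0.00363) and r = 0.78 with Ddit4 (permutation p = 0.00754, adjusted p = 0.0834, rho = 0.71, permutation p = 0.0267). Leaving out the 2 farthest rats gave 0.82 and 0.77, and leaving out Chow 1 and Chow 4 gave 0.77 and 0.72. The neighbouring metallothioneins had r = 0.69 (permutation p = 0.0227, adjusted p = 0.148, rho = 0.54, permutation p = 0.113), 0.35 without Chow 4 and Chow 5, the 2 highest rats for both genes, and 0.60 without Chow 1 and Chow 4. Mt2A and 1 probe set of Pdk4 (1378074_at) had r = 0.78 (permutation p = 0.00967, adjusted p = 0.0834, rho = 0.61, permutation p = 0.0670), 0.26 without Chow 4 and Chow 5, and 0.84 without Chow 1 and Chow 4. These 2 relations of Mt2A were thus weaker without Chow 4 and Chow 5, while that with 1 probe set of Fkbp5 (r = 0.46, permutation p = 0.183, adjusted p = 0.511, rho = 0.75, permutation p = 0.0177, adjusted p = 0.146) had r = 0.67 without them and 0.37 without Chow 1 and Chow 4.

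Probe sets of the same gene did not always order the rats alike. The measurable probe set of Klf9 had r = 0.81 and r = 0.59 with its flat ones, which had r = 0.43 with each other. The 2 probe sets of Fkbp5 had r = 0.59 and those of Pdk4 r = 0.41. Without Chow 1 and Chow 4 these values were 0.85, 0.71 and 0.51 for Klf9, 0.65 for Fkbp5 and 0.43 for Pdk4. Of all 91 pairs 68 had an r above 0, and 22 had an unadjusted permutation p below 0.05. All points share the same 10 arrays.

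**Figure D5:**
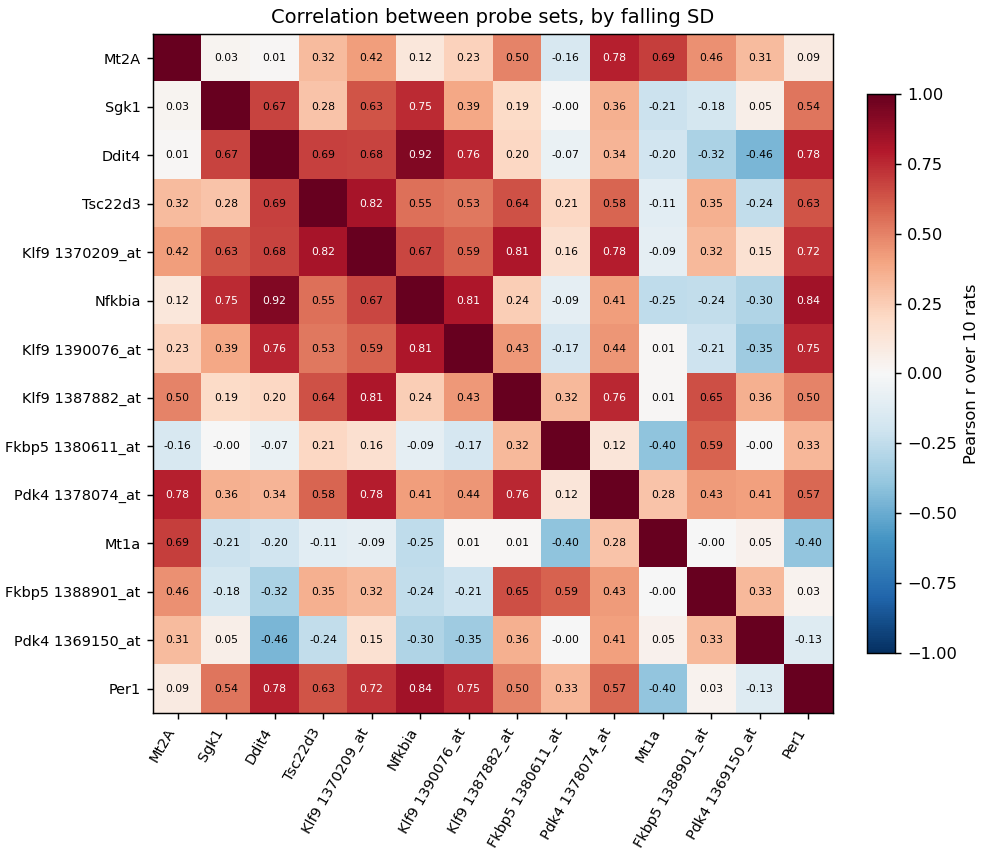
Pearson r over the 10 rats for each pair of the 14 member probe sets, ordered by falling SD. The row of Mt2A is pale against Sgk1 and Ddit4 (0.03 and 0.01), while Ddit4 and Nfkbia reach 0.92.

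Among the 1014 probe sets of other genes that vary and name a single gene, the ones most like Mt2A over the 10 rats were Slc35a1 (r = 0.81), a sugar nucleotide carrier of the Golgi, Atl1 (r = 0.72), a shaping protein of the endoplasmic reticulum, and Cga (r = 0.72), the shared subunit of the pituitary glycoprotein hormones. Its level was 9.86 in Chow 4 and 8.48 in Chow 5, the same 2 rats that were highest for Mt2A, whereas the other 8 rats had 6.36 to 6.64. Most like Sgk1 were Med13 (r = 0.84), a Mediator subunit, the transcription factor Zeb2 (r = 0.77) and Fcrl2 (r = 0.74). Chow 2 had a Med13 level of 7.42 and the other 9 rats had 6.78 to 6.87, so its likeness rested on that rat. Most like Ddit4 were Angptl4 (r = 0.81), a lipase inhibitor that is itself induced by glucocorticoids, Grifin (r = 0.70) and Slc35d3 (r = 0.70). These are the highest values out of 1014 and carry no test.

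The receptor and the genes that handle the hormone were nearly all flat. Of 12 matched genes 10 were flat, among them Nr3c1, the mineralocorticoid receptor Nr3c2, the enzymes Hsd11b1 and Hsd11b2 that make and inactivate the active hormone, and the co-chaperone Fkbp4. The co-repressor Ncor1 varied and was the 1 gene called (higher by 0.23, SE 0.22, FDR 0.0125). Its C rats ran between 7.39 and 8.45 and its P rats between 7.39 and 7.88, so the groups overlapped. Ncor1 was called without Chow 1 and Chow 4 too.

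Of 19 other glucocorticoid-induced genes 14 were flat, among them Dusp1, Cdkn1a, Errfi1 and Glul, and 0 were called in either direction. The 4 varying ones had positive differences, at 0.15 (SE 0.14) for Crispld2, 0.11 (SE 0.15) for Lcn2, 0.08 (SE 0.14) for Fam107a and 0.05 (SE 0.09) for Angptl4. Angptl4 came closest to a call (FDR 0.0529), and without Chow 1 and Chow 4 it was called higher. The median difference was 9.48e-05 over this list and 0.0037 over the 10 members, each gene taken by its probe set of largest SD.

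Of 4 matched genes listed for the hormone's feedback axis, 2 (Crh and Avp) were called lower in the C group, while Crhbp and Pomc were flat. Both called genes are also among the 11 genes of hypothalamic neurons, of which 7 were called lower. Crh differed by -0.18 (SE 0.16, FDR 0.00526), with C rats between 7.10 and 7.62 and P rats between 7.20 and 7.84. Avp differed by -0.13 (SE 0.22, FDR 0.0150), with C rats between 11.32 and 12.33 and P rats between 11.67 and 12.45. Both groups overlapped for both genes, and limma called neither. Without Chow 1 and Chow 4 Avp was called lower and Crh was not.

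Partners of the members showed little. Of 19 such genes 17 were flat, among them the metal sensor Mtf1, the zinc exporter Slc30a1, the brain metallothionein Mt3, the NF-κB subunits Nfkb1 and Rela, and Tsc1 and Tsc2, through which Ddit4 acts. Sgk3, a relative of Sgk1, and Ndrg1, a substrate of Sgk1, varied, with differences of 0.05 (SE 0.09) and 0.04 (SE 0.09). Neither was called. Of 11 clock genes 7 were flat like Per1, and Per2 was called lower (-0.05, SE 0.11, FDR 0.0340). Its C rats ran between 8.35 and 8.81 and its P rats between 8.43 and 8.82. It was not called without Chow 1 and Chow 4.

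Several members are also expressed outside neurons, so markers of other cell types were read in the same rats. All 10 leptomeningeal markers were called higher in the C group, with a median difference of 0.27. Without Chow 1 and Chow 4, 0 were called higher and 4 were called lower (Igf2, Ogn, Slc22a6 and Slc6a13). Their summed log2 level ran between 81.5 and 93.8 in the C rats and between 78.6 and 89.6 in the P rats. For each rat the list was scored as the mean deviation of its varying genes. Mt2A had r = 0.41 with this score (permutation p = 0.239, rho = 0.64, permutation p = 0.0546), 0.81 without Chow 4 and Chow 5 and 0.12 without Chow 1 and Chow 4. Chow 1 and Chow 4, with the highest scores, were among the 3 rats above the P group for Mt2A, but Chow 5, the highest for Mt2A, scored -0.18.

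Of 7 astrocyte markers 2 were called higher, among them Gfap by 0.16 (SE 0.11, FDR 0.0218). The other, Aqp4, was not called in its probe set of largest SD (FDR 0.316) but through another of its probe sets. The summed log2 level of the list was 65.5 to 66.5 in the C rats and 65.2 to 66.0 in the P rats, and r with Mt2A was 0.27 (permutation p = 0.418, rho = 0.03, permutation p = 0.945) and 0.10 without Chow 1 and Chow 4. Of 8 oligodendrocyte markers, all of which varied, 1 was called higher, and r with Sgk1 was 0.48 (permutation p = 0.154, rho = 0.42, permutation p = 0.235) and 0.49 without Chow 1 and Chow 4. Chow 2 and Chow 4 had the highest oligodendrocyte scores, at 0.26 and 0.30. None of 7 endothelial and none of 8 mural cell markers were called. The 1 varying marker of 6 for the choroid plexus, Ttr, was called higher, as were 2 of 2 erythrocyte markers and 1 of 4 of cortex and hippocampus. Of 5 ependymal markers 1 was called higher and 2 lower, and of 6 microglial markers 0 were called. Of 11 genes of hypothalamic neurons 7 were called lower. Without Chow 1 and Chow 4 none of the astrocyte, oligodendrocyte, erythrocyte, ependymal and cortical markers were called, Ttr was called higher, 1 microglial marker (P2ry12) was called lower, and 4 genes of hypothalamic neurons were called lower (Avp, Cartpt, Oxt and Pmch). Over 45 relations between 5 member probe sets and 9 such lists, 0 passed 0.05 after adjustment. The part of these cell types in the differences of Mt2A and Sgk1 was not tested.

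The array's own probe sets for RNA quality were flat with 1 exception, the beta-actin probe set at the 5′ end, which read 11.31 to 11.41 in the C rats and 11.29 to 11.41 in the P rats. As for the members, a flat value after this summarization is no evidence of constancy. The flat control values thus do not show that RNA quality was equal.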

How the data were processed

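Hypothalamic RNA of 10 rats, 5 per diet, was read on 1 array each. The authors normalized the scans in R with factor analysis for robust microarray summarization, which gave deposited log2 signals from 5.23 up to 13.96. These were used unchanged, for 31042 of 31099 probe sets (57 control probe sets of the array left out, among them those for RNA quality). Genes were named from the array annotation, and of 173 list entries 157 were matched. Named genes were the 10 members, the 3 genes most like each varying member, and up to 5 called or varying genes of each other list. Flat genes named beside a count, and genes named for a call without Chow 1 and Chow 4, fall outside this rule and were chosen after their values were seen. Members and lists were chosen with earlier results of these data known.

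Rank products were computed in Python 3.11.15 (numpy 2.4.6, pandas 2.3.3) with 100 permutations of the values within each array. A gene counted as called when any of its probe sets passed, so genes with several probe sets had more chances of a call. The design fixed at the start had worded the permutation as one of ranks within pairs. That form treats the 25 pairs, which share rats, as independent, so it is given as an alternative only. Limma 3.58.1 (R 4.3.3) fitted the diet with Benjamini-Hochberg adjustment over 31042 probe sets. Exact permutation tests and correlations (100000 permutations, two-sided) used scipy 1.17.1 and numpy, and drawings matplotlib 3.10.9. Scripts were tested on simulated data in which all probe sets had noise of the same size. That test does not cover the mix of flat and varying probe sets in the deposited values. Alternatives were leaving out rats, other normalizations, filters, thresholds, a scaled difference, a replicate block, trended variances and rank correlation. No source states whether rats of a group shared cages or litters, so p-values measure only the spread between these rats. Arrays correlated at 0.9970 to 0.9991, and no columns were left unmapped. Promoters and gene positions came from RefSeq (GRCr8).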

Additional observations from a re-analysis of the deposited data

Results flagged for a closer look

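For Sgk1, Chow 2 stood apart from the other C rats, at 9.78 against 9.17 to 9.34. Its gap to the nearest rat was 0.719 of the whole range of the group, above the critical value of Dixon's test for 5 samples. This was 1 of 28 groups of 5 rats tested, 2 for each of the 14 probe sets, and chance marks about 1 group in 20.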

How the results depend on the processing

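The number of members called higher by rank products was 2, and 1 to 2 without 1 rat. It was 0 without Chow 1 and Chow 4, 0 among probe sets with an SD above 0.1 only, 0 with differences divided by the within-group SD, and 0 at an FDR threshold of 0.01. Calls of any probe set as higher also became few, at 49, 1 (of 1391), 31 and 93 in the same order, against 292 in the main fit. With ranks permuted within pairs, the form worded at the start and made an alternative after seeing the data, 6 members were called higher. Of these 6, Ddit4 and Tsc22d3 were also called lower. In all, that form called 2878 probe sets higher and 2680 lower. Limma called 0 members under each of its 18 alternatives. The Mt2A difference ran between 0.13 and 0.30 and the Sgk1 difference between 0.068 and 0.22 without 1 rat. Both were no longer called without Chow 1 and Chow 4 (0.17 and 0.24) and among varying probe sets only (0.23 and 0.17). All differences of Mt2A and Sgk1 kept their sign, while those of Ddit4 (-0.01 to 0.09) and Tsc22d3 (-0.03 to 0.05) took both signs without 1 rat. The Ddit4 difference was 0.14 without Chow 1 and Chow 4, and it was not called.

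Rats of the 2 groups share only a number. The 5 same-numbered pairs correlated at -0.33 to 0.28, with 2 above 0.1, and 0 C rats correlated best with their own number. With the replicate block 2 members were called higher, Mt2A and Ddit4 (0.035, FDR 0.0465), while Sgk1 (0.17, FDR 0.0756) was not. That fit called 207 of all 31042 probe sets higher and 325 lower. An exact test that flips the signs of the 5 pair differences gave p = 0.25 for Mt2A, 0.5625 for Ddit4 and 0.3125 for Sgk1. With only 5 pairs the p-value of this test cannot fall below 0.05. The count of varying genes was 3, 2 to 4 without 1 rat and 5 at an SD threshold of 0.05. The median correlation was 0.03, and -0.071 to 0.46 without 1 rat, the highest without Chow 2. It was 0.43 without Chow 1 and Chow 4 and, in a choice made after seeing the data, 0.52 over the 5 genes with an SD above 0.05. Calls of the other gene lists without Chow 1 and Chow 4 were also added after seeing the data. The cause of these shifts was not tested. The number of arrays and the flat summarization limit what can be seen of the other members.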

Other observations

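Of 8 immediate early genes, which answer to neuronal activity, 6 were flat and 2, Fos and Egr1, varied. The mean deviation of these 2 genes had a negative r with all 5 member probe sets above the flat range, and none passed after adjustment over 45 relations. It was -0.72 with Klf9 (permutation p = 0.0178, adjusted p = 0.695, rho = -0.72, permutation p = 0.0232), -0.51 without Chow 1 and Powder 1 and -0.73 without Chow 1 and Chow 4. With Sgk1 it was -0.61 (permutation p = 0.0690, adjusted p = 0.695, rho = -0.78, permutation p = 0.0106), and -0.79 both without Chow 2 and Powder 4 and without Chow 1 and Chow 4. It was -0.58 with Tsc22d3 (permutation p = 0.0795, rho = -0.53, permutation p = 0.123), -0.57 with Ddit4 (permutation p = 0.0849, rho = -0.30, permutation p = 0.405) and -0.07 with Mt2A (permutation p = 0.841, rho = -0.10, permutation p = 0.786). Without the 2 farthest rats these 3 values were -0.25, 0.12 and 0.66, and without Chow 1 and Chow 4 they were -0.33, -0.51 and -0.20. By rank products Fos was lower in C rats (-0.13, SE 0.13, FDR 0.0111), with C rats between 7.90 and 8.53 and P rats between 8.19 and 8.56, and it was called without Chow 1 and Chow 4 too. Egr1 differed by 0.10 (SE 0.17) and was not called.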
